A study of Mus musculus with 20 samples.

Results

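Transcripts of the keratin genes were measured in the uteri of 20 pregnant mice. The keratin genes were taken as every gene whose symbol is Krt followed by digits alone, which gave 50 of the 45777 genes in the table. They were divided by their usual site of expression into 5 simple epithelial keratins, 16 keratins of stratified epithelia, 13 keratins of the hair shaft, 9 of the inner root sheath and companion layer of the hair follicle, and 7 that are less firmly assigned. All mice were wild-type B6D2F1 females 8 to 12 weeks old, mated, and killed at 18:00 on day 3.5 after coitus, shortly before embryos attach. The 5 mice of the control group were pregnant and untreated. The 5 mice of the implantation failure (IF) group received 3 mg/kg RU486, an antagonist of the progesterone and glucocorticoid receptors, under the skin at 9:00 on day 3.5. The 5 mice of the PBMC group received the same RU486 after 50000 peripheral blood mononuclear cells per horn had been placed in the uterine cavity on day 1.5, the cells having come from non-pregnant mice and spent 24 h in culture. The 5 mice of the PBMC-hCG group were treated alike, with cells cultured in 5 IU/mL human chorionic gonadotropin (hCG). Mice given medium without cells were not analysed here, so the injection itself and the cells cannot be told apart. RNA came from a whole horn of each mouse, and levels are in TPM (transcript abundance corrected for length and scaled to a fixed total per library).

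Keratins build the intermediate filaments of epithelial cells. Each filament unit pairs an acidic type I keratin with a basic type II keratin, so cells make members of both types together. Simple epithelia such as the uterine lumen and glands use mainly Krt8 with Krt18 and Krt19, stratified epithelia such as epidermis use Krt5 with Krt14 and Krt1 with Krt10, and the cysteine-rich hair keratins harden the hair shaft. The type II genes and Krt18 lie in a cluster on chromosome 15 and the other type I genes in a cluster on chromosome 11. By the GRCm38 annotation, 24 of the 50 genes were type II genes on chromosome 15, 1 was the type I gene Krt18 beside them, and 25 were type I genes on chromosome 11.

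The results turn on a block of 5 keratin genes, in the order Krt87, Krt88, Krt81, Krt86 and Krt83, of which all but Krt88 are hair keratins. The block occupies chr15:101431490-101491512 (GRCm38), spans 60.0 kb and starts 3.68 kb beyond the end of Krt7. Krt88, listed among the less firmly assigned genes, lies inside the block and was at 0 TPM in all 20 libraries. The first 60 coding bases of the 4 expressed genes are shown because they differ between transcripts that are otherwise very alike. Capitals mark the 48 of 60 positions that are not the same in all 4 genes, counted from the start codon without gaps. A stretch that genes share at shifted positions, as Krt81 and Krt83 do here, is thus mostly in capitals. The count therefore overstates how far the copies differ.
Krt86, chr15:101473551-101473610, plus strand: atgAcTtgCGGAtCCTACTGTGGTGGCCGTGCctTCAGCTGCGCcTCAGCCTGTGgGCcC
Krt81, chr15:101463638-101463697, minus strand: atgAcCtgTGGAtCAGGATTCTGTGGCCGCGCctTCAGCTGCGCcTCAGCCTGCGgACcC
Krt83, chr15:101491390-101491449, minus strand: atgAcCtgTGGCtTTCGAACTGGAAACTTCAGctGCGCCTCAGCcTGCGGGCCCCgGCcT
Krt87, chr15:101438711-101438770, minus strand: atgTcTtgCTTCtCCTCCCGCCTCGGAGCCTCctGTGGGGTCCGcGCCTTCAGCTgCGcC
Farther into the coding sequence, all 4 genes carry the same run of 85 bases, shown from Krt86 because reads within it cannot be given to any of the 4 genes.
Krt86, chr15:101476506-101476590, plus strand: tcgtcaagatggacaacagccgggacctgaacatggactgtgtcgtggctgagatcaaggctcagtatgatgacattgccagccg
Over the aligned coding sequence, Krt81 and Krt86 were 94.2% identical, Krt81 and Krt83 were 94.0% identical, and Krt83 and Krt87 were least alike at 90.3%. Each of the 4 was 64.1% to 66.9% identical to Krt7 or Krt8. Of all windows of 50 coding bases, 58.8% in Krt86, 56.0% in Krt81, 28.5% in Krt83 and 26.5% in Krt87 occurred unchanged in another keratin gene. The share was 4.8% in Krt17 and 0 in the other 10 keratins named below. How the authors' counting divided reads among such copies is not given in the sources used here, so the division of the signal among Krt81, Krt83, Krt86 and Krt87 is uncertain.

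The upstream sequences of Krt8 and Krt18, which form a filament pair and changed together, and of Krt23, which changed the opposite way, are shown for the 250 bases before the RefSeq gene start (GRCm38.p6). Capitals mark GGTCA or its complement on the other strand, the core motif of estrogen response elements.
Krt8, chr15:102004343-102004592, minus strand: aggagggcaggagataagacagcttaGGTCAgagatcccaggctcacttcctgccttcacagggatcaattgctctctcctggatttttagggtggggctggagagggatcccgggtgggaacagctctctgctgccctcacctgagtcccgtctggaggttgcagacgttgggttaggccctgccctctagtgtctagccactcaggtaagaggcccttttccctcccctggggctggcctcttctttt
Krt18, chr15:102027966-102028215, plus strand: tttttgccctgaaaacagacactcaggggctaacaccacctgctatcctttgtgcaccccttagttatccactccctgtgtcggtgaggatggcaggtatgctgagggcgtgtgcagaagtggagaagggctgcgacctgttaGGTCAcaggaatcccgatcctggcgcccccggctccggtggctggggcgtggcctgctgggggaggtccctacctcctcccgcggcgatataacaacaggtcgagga
Krt23, chr11:99493121-99493370, minus strand: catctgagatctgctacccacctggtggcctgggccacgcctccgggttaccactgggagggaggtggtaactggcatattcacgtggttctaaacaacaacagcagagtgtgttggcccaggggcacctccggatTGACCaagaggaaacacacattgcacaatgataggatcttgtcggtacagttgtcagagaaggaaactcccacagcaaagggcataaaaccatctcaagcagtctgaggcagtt
The motif lay 224 to 220 bases upstream in Krt8, 107 to 103 bases upstream in Krt18 and 114 to 110 bases upstream in Krt23. RefSeq promoters of 300 bases (250 before and 50 after the start) were at hand for 35 keratins, with 36 promoters. GGTCA on either strand occurred in 17 of them (47.2%), against 40.5% of all 32851 promoters. The full palindrome GGTCANNNTGACC occurred in 0 of the 36 and in 0.07% of all promoters, and GNACANNNTGTNC, the element shared by progesterone and glucocorticoid receptors, in 0 of the 36 and in 0.475% of all. Promoters of Krt17, Krt19, Krt80, Krt81, Krt83, Krt86, Krt87 and Krt222 were not used here.

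In the control uterus, simple epithelial keratins dominated. Krt18 (245 ± 72.8 TPM, SD, n = 5) and Krt8 (151 ± 25.9 TPM) had the highest means, followed by Krt23 (85.6 ± 29.2 TPM), Krt7 (84.2 ± 43.3 TPM), Krt19 (55.9 ± 27.5 TPM) and the hair keratin Krt83 (54.2 ± 8.61 TPM). Every control value of Krt18 (lowest 191 TPM) lay above every control value of Krt8 (highest 178 TPM). The values of the later neighbours in this order overlapped between mice. Below them came Krt80 (6.37 ± 4.48 TPM), Krt10 (5.89 ± 0.842 TPM), Krt12 (3.87 ± 5.77 TPM), Krt17 (1.82 ± 1.64 TPM), Krt87 (1.77 ± 0.485 TPM) and Krt81 (1.29 ± 0.197 TPM). Krt20, Krt222, Krt86 and Krt1 had means of 0.794, 0.520, 0.380 and 0.219 TPM. Krt7, Krt8, Krt18, Krt19, Krt23 and Krt83 made up 96.6 ± 0.772% of all keratin transcripts of the control mice. By its mean over all 20 mice, Krt83 stood at percentile 91.3 of the 18706 tested genes.

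Only these 16 keratins were above 0 TPM in all 20 libraries, the condition for testing, and of the other 34, 13 were at 0 in every library and 21 in some. The 16 were 5 of 5 simple epithelial, 4 of 16 stratified, 4 of 13 hair shaft, 0 of 9 inner root sheath and companion layer and 3 of 7 less assigned keratins. The highest value of an untested keratin was 1.52 TPM, of Krt4 in an IF mouse. Krt5 and Krt14, the pair of basal layers, had group means of at most 0.0622 and 0.362 TPM.

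Control mouse 2 stood apart from the other control mice. Its collagen transcripts were low (Col1a1 665 TPM against 1718 to 2069 TPM in the other 4, Col3a1 928 TPM against 2990 to 3113 TPM). Its Krt7, Krt12, Krt18, Krt20 and Krt80 were also far above those of the other control mice, and values without it are given where they matter. The number of reads behind a TPM value is unknown, so no counting error can be given.

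Differences were tested on log2(TPM + 0.1) with limma across all 18706 tested genes and called at a Benjamini-Hochberg adjusted p under 0.05. Between IF and control mice, limma called 8 of the 16 tested keratins, 7 higher and 1 lower in the IF group, against 21.9% of all tested genes (13.4% higher and 8.53% lower). The median log2 difference was 0.37 over the 16 keratins and 0.02 over all tested genes. The called keratins were all 4 hair shaft keratins, 3 of 5 simple epithelial keratins and Krt23. None of the 4 tested stratified keratins was called by limma, whereas 10 of the 16 keratins, Krt10 and Krt17 among them, had an unadjusted p under 0.05, against 33.9% of all tested genes.

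Of the 16 tested keratins, Krt86, Krt81 and Krt87 showed the largest differences between IF and control mice. Krt86 was 0.539, 0.596, 0.294, 0.252 and 0.219 TPM in control mice 1 to 5 and 4.82, 9.85, 7.18, 21.3 and 16.6 TPM in IF mice 1 to 5. Every IF mouse thus lay above every control mouse, and the means differed 31.5-fold (log2 difference 4.53 ± 0.641, SE, limma adjusted p = 5.82e-05). In the PBMC group it was 2.14, 1.71, 3.01, 1.44 and 9.99 TPM, and in the PBMC-hCG group 8.11, 0.414, 0.463, 1.29 and 1.18 TPM. Mouse 5 of the PBMC group and mouse 1 of the PBMC-hCG group were thus within the range of the IF mice, while the other treated mice were below it.

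Krt81 was 1.53, 1.34, 1.37, 1.21 and 1.01 TPM in control mice and 5.69, 10.8, 7.09, 17.4 and 14.6 TPM in IF mice. The groups did not overlap, with means 8.60-fold apart (log2 difference 2.90 ± 0.452, SE, limma adjusted p = 0.000145). Its values were 3.88, 2.16, 4.68, 2.58 and 10.1 TPM in PBMC mice and 7.34, 1.65, 0.923, 2.78 and 1.99 TPM in PBMC-hCG mice.

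Krt87 was 1.35, 2.46, 1.30, 1.70 and 2.02 TPM in control mice and 5.63, 10.0, 7.44, 17.1 and 16.1 TPM in IF mice, again without overlap (means 6.37-fold apart, log2 difference 2.52 ± 0.458, SE, limma adjusted p = 0.000621). It was 3.19, 2.29, 3.94, 2.66 and 10.7 TPM in PBMC mice and 6.78, 1.22, 1.20, 3.08 and 1.61 TPM in PBMC-hCG mice. Within the IF group, Krt81, Krt86 and Krt87 ranked the 5 mice in the same order, with mouse 4 highest and mouse 1 lowest. In all 3 genes, mouse 5 was the highest of the PBMC group and mouse 1 the highest of the PBMC-hCG group.

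Krt83 was much more abundant and changed by a smaller factor. It was 61.5, 62.4, 49.0, 56.0 and 42.1 TPM in control mice and 119, 129, 135, 111 and 133 TPM in IF mice, without overlap (means 2.32-fold apart, log2 difference 1.22 ± 0.173, SE, limma adjusted p = 5.84e-05). In PBMC mice it was 104, 75.5, 119.8, 80.8 and 122 TPM and in PBMC-hCG mice 91.9, 58.8, 47.1, 90.8 and 69.2 TPM. Unlike the other 3 genes, it was lowest in mouse 4 of the IF group.

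**Figure D1:**
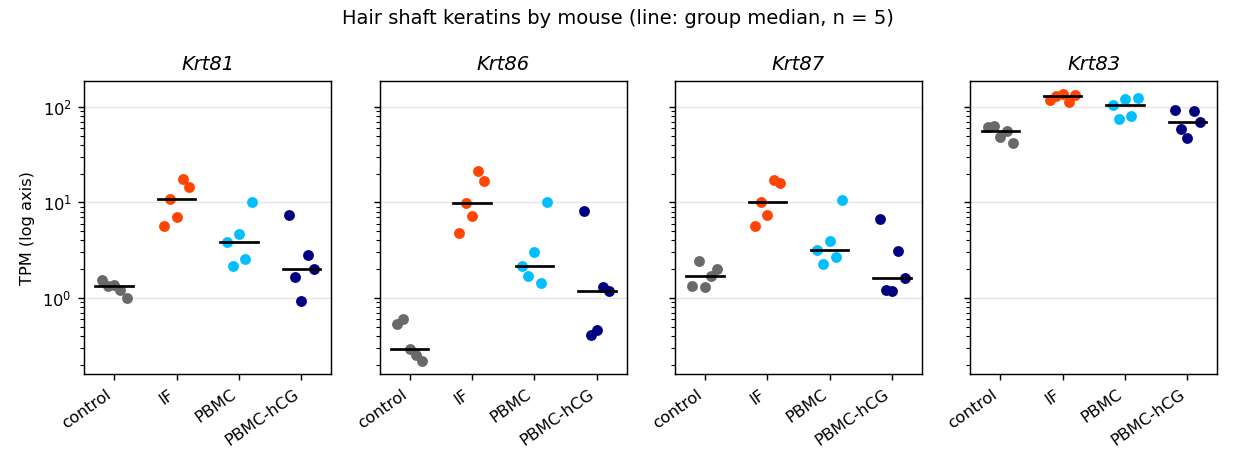
TPM of the 4 tested hair shaft keratins on a log axis, each point 1 mouse and each line the median of the 5 mice of a group. All IF mice lie above all control mice in each gene, and mouse 5 of the PBMC group and mouse 1 of the PBMC-hCG group are the highest of their groups.

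All 4 of these calls between the IF and control groups held under each of 9 other settings and when any of the 10 mice was left out, with limma adjusted p-values of 0.00247 or less in the latter. In the IF group, 4 of 16 tested keratins lay wholly above the control group, as did 8.55% of all tested genes. The 4 genes were the same 4 hair keratins.

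In the summed level of the hair shaft keratins, in which these 4 genes held 98.7% to 100% per mouse, the means were 57.9 ± 9.12 TPM (SD, n = 5) for control mice against 161 ± 16.5 TPM for IF mice. The sums were 114 ± 30.1 TPM in PBMC mice and 79.7 ± 26.3 TPM in PBMC-hCG mice. Their share of all keratin transcripts was 8.55 ± 1.49% in control mice, 17.2 ± 2.64% in IF mice, 11.7 ± 2.51% in PBMC mice and 7.76 ± 2.87% in PBMC-hCG mice. Within the sum, Krt83 made up 93.5 ± 1.14% in control mice and 78.8 ± 8.96% in IF mice. The ratio of Krt81 to Krt86 was 3.83 ± 1.19 in control mice, between 2.26 and 4.80, and 0.993 ± 0.149 in IF mice, between 0.818 and 1.18. The ratio thus did not overlap between the groups, and it compares genes with long shared stretches of sequence.

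Other markers of hair were absent or low. Foxn1 and Hoxc13, transcription factors of the hair matrix, were at 0 TPM in all 20 libraries, and Dsg4, the desmoglein of the hair cortex, was at 0 in all control and IF mice and reached at most 0.0868 TPM in the treated mice. Trichohyalin (Tchh), a protein of the inner root sheath and medulla, was 1.63 to 2.14 TPM in control mice and 0.813 to 1.78 TPM in IF mice, and it was the only 1 of 6 hair shaft markers that could be tested, with a lower call in the IF group. The summed level of the 6 markers was 2.03 to 5.72 TPM in control mice and 1.42 to 5.65 TPM in IF mice, and single mice reached the upper ends through S100a3 (3.65 TPM in control mouse 5 and 2.96 TPM in IF mouse 5). Padi3, a deiminase of the hair follicle that was not tested because it was at 0 in a PBMC mouse, lay at 0.114 to 0.332 TPM in control mice and at 0.342 to 1.24 TPM in IF mice, without overlap. It was at 0.162 to 0.332 TPM in PBMC-hCG mice, so it was high in the same group as the hair keratins.

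**Figure D2:**
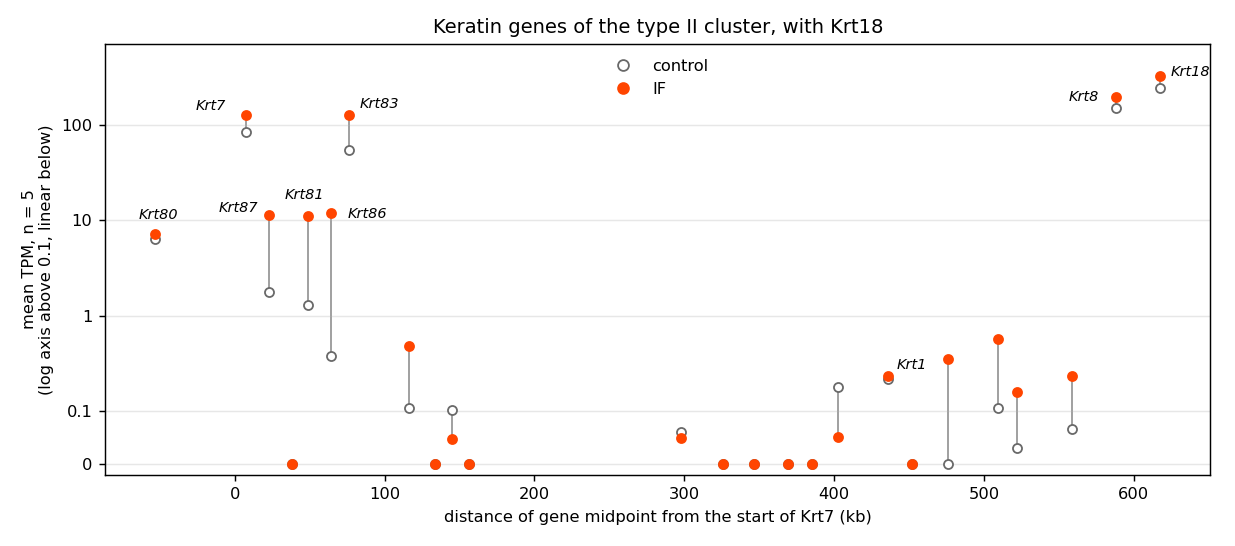
Mean TPM of the type II keratins and Krt18 in the control group (open) and IF group (filled) against the distance of each gene from the start of Krt7, with a log axis above 0.1 TPM. Tested keratins are labelled, and the nearby genes Krt87, Krt81, Krt86 and Krt83 show the widest gaps among them.

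Between the PBMC-hCG and IF groups, limma called 5 of the 16 keratins, 4 lower and 1 higher in the PBMC-hCG group, against 13.6% of all tested genes (5.99% lower and 7.61% higher). The median log2 difference was -0.13 over the 16 keratins and 0.05 over all tested genes. The 4 lower genes were again the hair shaft keratins, and the higher gene was Krt8. Krt86 fell by 2.98 ± 0.641 on the log2 scale (SE), Krt87 by 2.18 ± 0.458, Krt81 by 2.10 ± 0.452 and Krt83 by 0.85 ± 0.173, each with a limma adjusted p = 0.0258. The ratios of the means were 5.22, 4.05, 3.79 and 1.75 in the same order. Krt83 alone did not overlap between the groups, with a highest PBMC-hCG value of 91.9 TPM and a lowest IF value of 111 TPM, as did 2.19% of all tested genes in this direction.

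These 4 calls between the PBMC-hCG and IF groups held under the other settings, except that Krt83 missed the study's criterion of a 2-fold change, but not when single mice were left out. Without mouse 2, 4 or 5 of the IF group, or mouse 2, 3 or 5 of the PBMC-hCG group, limma called 0 of the 16 keratins, with adjusted p-values of the hair keratins from 0.0534 to 0.0919. In these 6 fits it called between 0 and 34 of all 18706 tested genes (at most 0.182%, against 13.6% with all mice), so the loss was not particular to keratins. Without mouse 4 of the PBMC-hCG group it called 1 keratin and 18 genes in all, and without mouse 3 of the IF group 9 keratins and 5061 genes. Leaving control mouse 2, which is in neither group, out of the shared fit raised the count to 9 keratins. It also raised the calls over all tested genes to 4080 (21.8%).

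Between the PBMC and IF groups, limma called 0 of 16 keratins and 0% of all tested genes. Krt86, Krt81 and Krt87 had an unadjusted p under 0.05 (0.00891, 0.0085 and 0.00644), against 6.79% of all tested genes, and log2 differences of -1.87 ± 0.641, -1.33 ± 0.452 and -1.40 ± 0.458 (SE). These 3 also met the study's criteria of a 2-fold change and an unadjusted p under 0.05, which 0.438% of all tested genes met. For Krt83 the log2 difference was -0.35 ± 0.173. Between the PBMC-hCG and PBMC groups, limma called 0 of 16 keratins and 0.0107% of all tested genes, with Krt10 and Krt83 at an unadjusted p under 0.05, against 16.2% of all tested genes.

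Compared with the control group, 3 of the 4 hair shaft keratins were called higher in the PBMC group (12.8% of all tested genes) and 0 of 4 in the PBMC-hCG group (20.2%) by limma. In the latter, Krt86 had a log2 difference of 1.55 ± 0.641 (SE, limma adjusted p = 0.0718) and Krt83 of 0.37 ± 0.173 (limma adjusted p = 0.111), both with an unadjusted p under 0.05. In the PBMC group the log2 differences were 2.66 for Krt86, 1.57 for Krt81 and 0.88 for Krt83 (limma adjusted p = 0.00634, 0.0189 and 0.0014), and 1.11 for Krt87, which was not called (limma adjusted p = 0.0976). The call of Krt81 was lost without mouse 5 of the PBMC group (limma adjusted p = 0.0514). The comparisons of IF, PBMC and PBMC-hCG mice with control mice share the same 5 control mice, and those of the treated groups with the IF group share the same 5 IF mice.

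The simple epithelial keratins followed another order of groups. Their summed level was 537 ± 162 TPM in control mice, 709 ± 87.3 TPM in IF mice, 798 ± 106 TPM in PBMC mice and 901 ± 103 TPM in PBMC-hCG mice (SD, n = 5). The highest mean was thus that of the PBMC-hCG group, whose hair keratin sum was the nearest to that of the control group.

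Krt8, the type II partner of Krt18, was 147, 178, 167, 154 and 110.3 TPM in control mice and 216, 168, 230.4, 195 and 168 TPM in IF mice. It was 196, 233, 205, 234 and 289 TPM in PBMC mice and 228, 311, 294, 261 and 235 TPM in PBMC-hCG mice. All PBMC and PBMC-hCG mice lay above all control mice, whereas the IF mice overlapped with both sides. The log2 differences from control were 0.38 ± 0.133 in the IF group, 0.62 in the PBMC group and 0.82 in the PBMC-hCG group (limma adjusted p = 0.0499, 0.00277 and 0.000167). Against the IF group the PBMC-hCG group was higher by 0.45 ± 0.133 (limma adjusted p = 0.0392).

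Krt18, the type I partner, was 207, 372, 229, 224 and 191 TPM in control mice and 340.1, 294, 385, 297 and 283 TPM in IF mice. It was 326, 373, 312, 381 and 376 TPM in PBMC mice and 342, 489, 458, 455 and 394 TPM in PBMC-hCG mice. Apart from control mouse 2, all control mice lay below all mice that had received RU486. The log2 differences from control were 0.42 ± 0.144, 0.57 and 0.84 in the IF, PBMC and PBMC-hCG groups (limma adjusted p = 0.044, 0.00891 and 0.000308). The ratio of Krt8 to Krt18 was 0.635 ± 0.105 in control mice, 0.610 ± 0.0340 in IF mice, 0.653 ± 0.0680 in PBMC mice and 0.623 ± 0.0382 in PBMC-hCG mice (SD, n = 5). These ratios overlapped in all groups.

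Krt19, a type I keratin of simple epithelia that is also made by mesothelium, was 43.9, 102, 56.4, 46.1 and 30.6 TPM in control mice and 88.0, 48.5, 86.5, 59.1 and 57.6 TPM in IF mice. It was 84.0, 78.5, 84.3, 89.2 and 147 TPM in PBMC mice and 112, 143, 109, 98.6 and 102 TPM in PBMC-hCG mice. Each PBMC-hCG mouse thus lay above each IF mouse, and the PBMC-hCG values overlapped with the control group only through control mouse 2. Between the IF and control groups the log2 difference was 0.36 ± 0.251 and was not called (limma adjusted p = 0.338). Without control mouse 2 it was 0.61 ± 0.208 and was called (limma adjusted p = 0.0374). The log2 difference of the PBMC-hCG group was 1.12 ± 0.251 from control (limma adjusted p = 0.00248) and 0.76 ± 0.251 from the IF group, which narrowly missed the threshold (limma adjusted p = 0.05, before rounding not below it). The PBMC group differed from control by 0.87 (limma adjusted p = 0.0196), a call lost without control mouse 5 (adjusted p = 0.0598) or PBMC mouse 5 (adjusted p = 0.0536).

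Krt7, a type II keratin of glandular and ductal epithelium, had its highest mean in the IF group instead. It was 63.8, 161, 59.3, 67.9 and 68.6 TPM in control mice and 101, 112, 139.7, 128 and 146 TPM in IF mice. Without control mouse 2 the groups did not overlap, and the log2 difference of 0.67 ± 0.213 (limma adjusted p = 0.029) became 0.94 (limma adjusted p = 6.95e-05). In PBMC mice it was 106, 109, 116, 88.1 and 162 TPM and in PBMC-hCG mice 104, 101, 82.7, 93.5 and 86.7 TPM, with log2 differences from control of 0.55 and 0.26 that were not called (limma adjusted p = 0.0799 and 0.374). Without control mouse 2 all PBMC and PBMC-hCG mice also lay above all control mice, and the log2 differences became 0.81 and 0.52 (limma adjusted p = 0.000325 and 0.00567). Krt7 is the neighbour of the hair keratin block. Krt20, best known from intestine and urothelium, ranged from 0.186 to 2.45 TPM over all mice and was called by limma in no comparison, with no unadjusted p under 0.05.

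**Figure D3:**
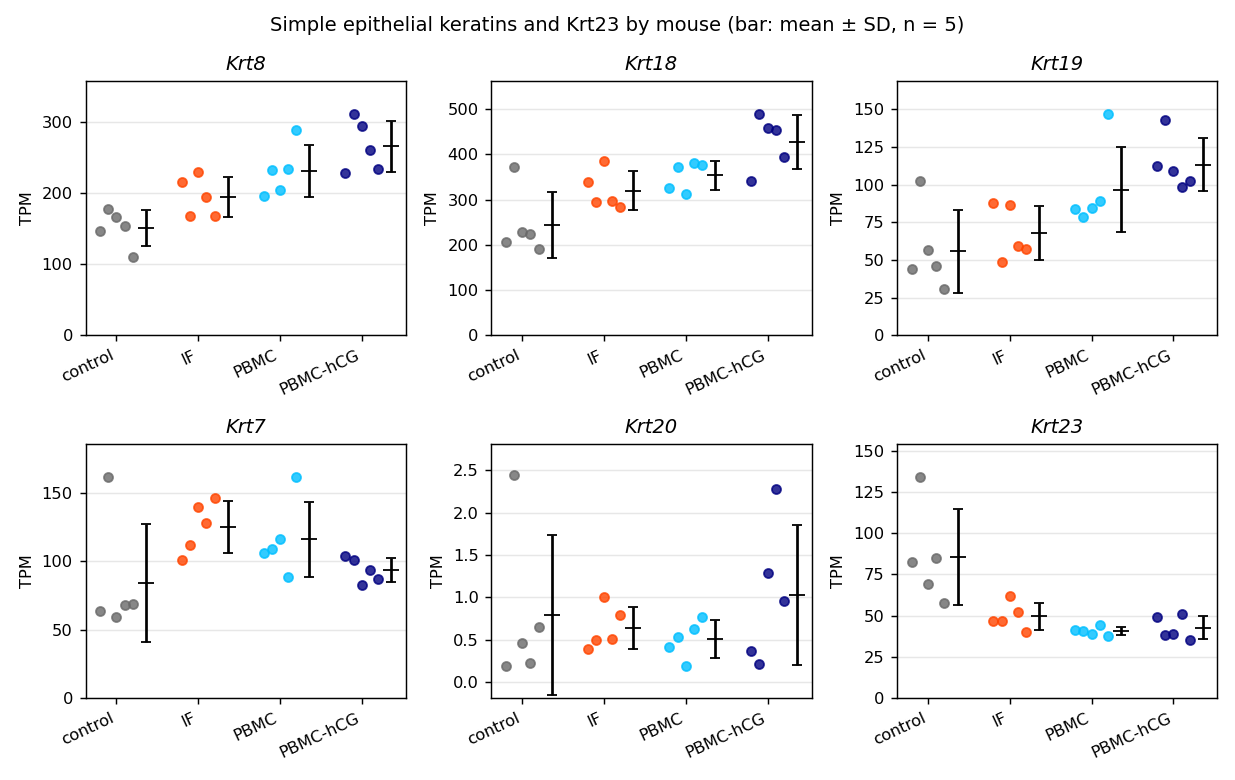
TPM of the simple epithelial keratins Krt8, Krt18, Krt19, Krt7 and Krt20 and of Krt23 in each mouse (points), with the mean and SD of 5 mice beside them. Krt8, Krt18 and Krt19 have their highest means in the PBMC-hCG group, Krt7 in the IF group and Krt23 in the control group.

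The calls of Krt8, Krt18 and Krt7 between the IF and control groups were near the threshold. They held in 2, 5 and 6 of 9 other settings and in 3, 2 and 3 of 10 fits that left out a mouse. In those 10 fits the limma adjusted p reached 0.136 for Krt8 and 0.112 for Krt18, both without control mouse 5, and 0.0825 for Krt7 without control mouse 3. Without control mouse 2 the log2 differences were 0.44 for Krt8 and 0.58 for Krt18 (limma adjusted p = 0.0232 and 0.000572).

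Krt23, a type I keratin of uncertain function, was the only keratin called lower in all 3 groups that received RU486. It was 82.4, 134, 69.1, 84.6 and 57.9 TPM in control mice and 46.8, 46.6, 61.9, 52.3 and 40.3 TPM in IF mice. It was 41.2, 40.5, 38.9, 44.3 and 37.6 TPM in PBMC mice and 49.2, 38.5, 38.8, 51.0 and 35.3 TPM in PBMC-hCG mice. All PBMC and PBMC-hCG mice lay below all control mice, and among IF mice only mouse 3 was above the lowest control value. The log2 differences from control were -0.74 ± 0.168 in the IF group, -1.02 in the PBMC group and -0.96 in the PBMC-hCG group (limma adjusted p = 0.00363, 0.000278 and 0.000326). Among the 3 groups that received RU486, limma called Krt23 in no comparison, with no unadjusted p under 0.05. Without control mouse 2, its log2 differences from control were -0.57, -0.84 and -0.79, and all 3 calls held.

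Of the tested stratified keratins, Krt10, the suprabasal partner of Krt1, was 5.36, 4.64, 5.13, 5.24 and 4.11 TPM in IF mice and 5.91, 5.81, 6.01, 6.89 and 5.86 TPM in PBMC-hCG mice. The groups did not overlap, yet the log2 difference of 0.31 ± 0.106 was not called (limma adjusted p = 0.053). Krt10 and Krt19 were the 2 of 16 keratins that lay wholly above the IF group in PBMC-hCG mice, as did 5.05% of all tested genes. Krt10 was called lower in PBMC mice than in control mice (log2 difference -0.33 ± 0.106, limma adjusted p = 0.0324), a call lost without control mouse 1, 3 or 4 or PBMC mouse 2, 3 or 5 (adjusted p = 0.0574 to 0.0939). Krt17, a type I keratin of hair follicles and injured epithelium, ranged from 0.656 to 4.56 TPM in control mice and from 2.04 to 7.98 TPM in IF mice. Its log2 difference was 1.48 ± 0.598 (limma adjusted p = 0.085), and mouse 5 of the PBMC group reached 15.1 TPM. Krt12, the keratin of corneal epithelium, was 14.2 TPM in control mouse 2 and 0.524 to 4.36 TPM in the other 19 mice, and Krt1 did not exceed 0.408 TPM. Both were called by limma in no comparison, with no unadjusted p under 0.05.

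Of the less assigned keratins, Krt222, a keratin-like gene of the type I cluster, was 0.449, 0.419, 0.773, 0.666 and 0.293 TPM in control mice and 0.774, 1.05, 1.17, 0.727 and 0.904 TPM in PBMC-hCG mice. Only control mouse 3 lay above the lowest PBMC-hCG value, and the log2 difference of 0.77 ± 0.227 was called (limma adjusted p = 0.0155) but lost without control mouse 5 (adjusted p = 0.051). Krt80, a type II keratin found in many epithelia, ranged from 3.46 to 14.2 TPM over all mice and was likewise called in no comparison, with no unadjusted p under 0.05. Without control mouse 2, at 14.2 TPM, its log2 difference between PBMC-hCG and control mice was 0.63 (limma adjusted p = 0.048).

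**Figure D4:**
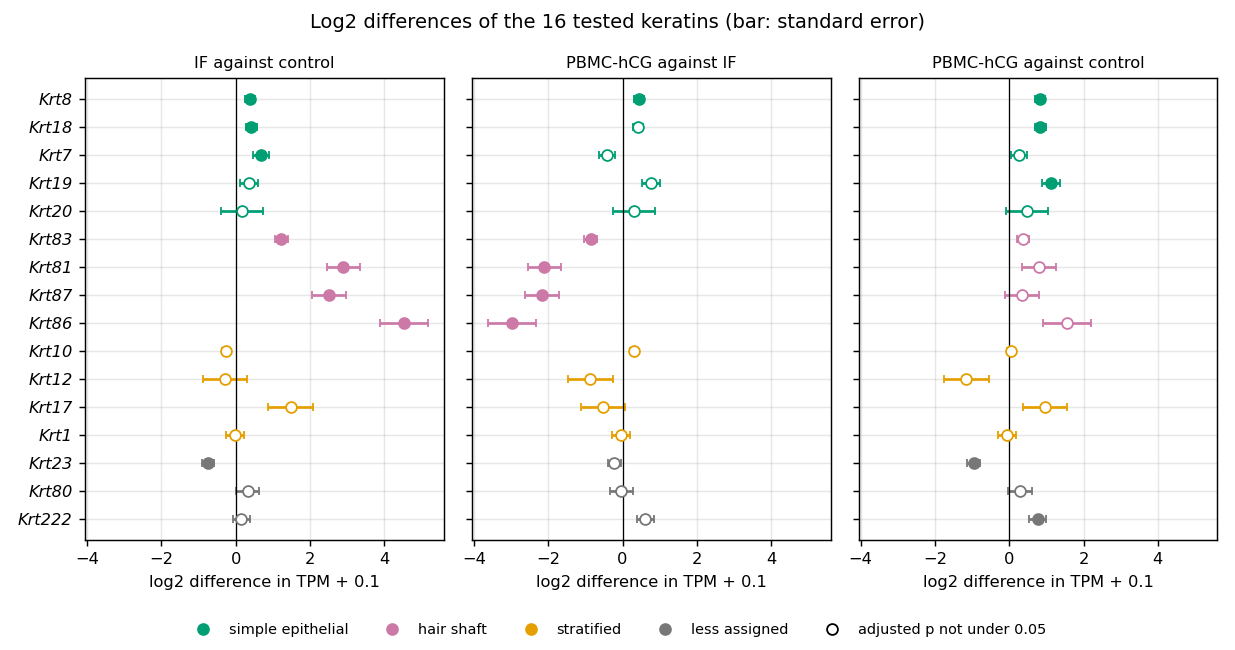
Log2 differences of the 16 tested keratins with their standard errors in 3 comparisons, coloured by class, where filled points passed an adjusted p of 0.05. Krt81, Krt86 and Krt87 lie farthest to the right between the IF and control groups and to the left between the PBMC-hCG and IF groups, while Krt8, Krt18 and Krt19 are filled between the PBMC-hCG and control groups.

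Over all 16 keratins, limma called 8 between the PBMC and control groups, 6 higher and 2 lower, against 19.5% of all tested genes (12.8% higher and 6.7% lower). Between the PBMC-hCG and control groups it called 5, 4 higher and 1 lower, against 31.8% (20.2% higher and 11.6% lower). The median log2 differences of the 16 keratins were 0.56 and 0.42, and those of all tested genes 0.05 and 0.08. The share called in the PBMC-hCG group (31.2%) was near that of all tested genes. In PBMC mice 4 of the 16 lay wholly above the control group and 1 below it, against 8.65% and 4.08% of all tested genes. In PBMC-hCG mice 1 lay wholly above and 1 below, against 13.2% and 5.07%. By the study's criteria, 5 keratins passed between IF and control mice (4.03% of all tested genes), 3 between PBMC-hCG and IF mice (2.31%) and 0 between PBMC-hCG and PBMC mice (0.893%). By the same criteria 4 passed between PBMC and control mice (3.34%) and 2 between PBMC-hCG and control mice (4.74%).

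Since filaments need both types, the sums of type I and type II transcripts were set side by side. Type I keratins summed to 400.0 ± 135 TPM in control mice, 451 ± 66.1 TPM in IF mice, 504 ± 56.0 TPM in PBMC mice and 596 ± 66.5 TPM in PBMC-hCG mice (SD, n = 5). Type II keratins summed to 300.2 ± 71.6, 489.8 ± 37.7, 467 ± 82.7 and 446 ± 30.3 TPM in the same order. The ratio of type II to type I was 0.820, 0.664, 0.771, 0.781 and 0.791 in control mice and 0.943, 1.12, 0.981, 1.18 and 1.27 in IF mice. It was 0.917, 0.851, 1.03, 0.794 and 1.04 in PBMC mice and 0.880, 0.704, 0.705, 0.745 and 0.737 in PBMC-hCG mice. All IF mice were above all control and all PBMC-hCG mice, and the hair shaft keratins, all type II among the 4 tested, supplied 32.9 ± 3.27% of the type II sum in IF mice and 19.6 ± 2.66% in control mice.

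**Figure D5:**
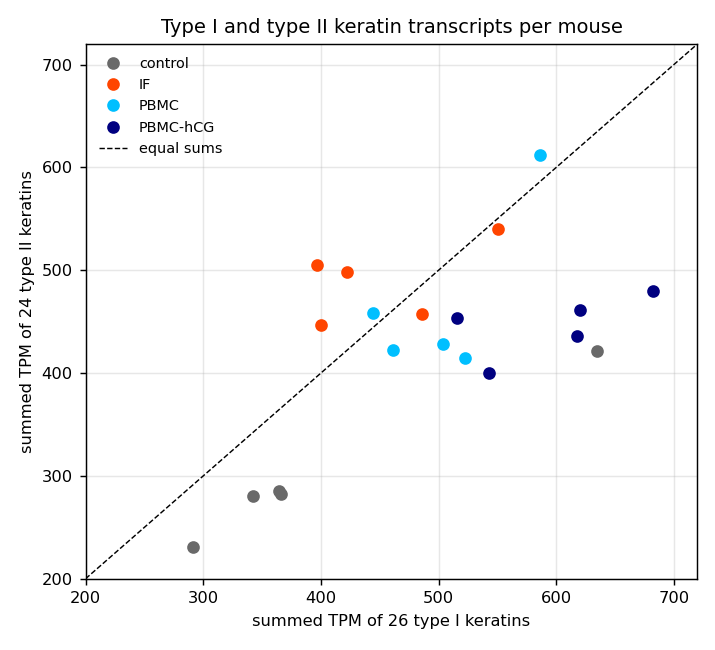
Summed TPM of the 24 type II keratins against that of the 26 type I keratins, each point 1 mouse, with a dashed line at equal sums. The IF mice lie near or above the line, and the control and PBMC-hCG mice lie below it.

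The untested keratins were low in every group, and those named here were chosen after their values were seen. Krt76, of oral epithelium, was at 0 TPM in all 5 control mice and at 0.0617 to 0.641 TPM in all 5 IF mice, and it was at 0 in 4 of 5 PBMC-hCG mice. The hair keratin Krt84 was 0.189 to 0.968 TPM in IF mice, at 0 in 3 of 5 control mice and at 0 in 4 of 5 PBMC-hCG mice. Control mouse 2, at 0.361 TPM of Krt84, lay within the IF range. Krt2, of stratified epithelia, went the other way. It was 0.104 to 0.315 TPM in control mice and at 0 in 3 of 5 IF, 3 of 5 PBMC and 4 of 5 PBMC-hCG mice. Krt6a, Krt6b, Krt33a and Krt33b are near copies that the symbol rule leaves out. Together they reached at most 0.127 TPM in control, 2.19 TPM in IF and 0.947 TPM in PBMC mice, and were 0 in all PBMC-hCG mice. In IF mice the sum had a lowest value of 0 and a median of 0.168 TPM. The highest was that of IF mouse 5, with 1.81 TPM of Krt6a.

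Genes that anchor or accompany keratin filaments were counted from lists that were chosen with earlier results of these data known. Their called members are named after their values were seen. Hemidesmosomes tie keratins to the basement membrane side of the cell. The median log2 difference of 12 plakin and hemidesmosome genes between IF and control mice was 0.45, and 0.02 over all tested genes. Of the 12, 5 were called higher in IF mice than in control mice and 0 lower, against 13.4% of all tested genes called higher. These were Itgb4, with means of 20.8 and 36.4 TPM in control and IF mice, Dst (14.1 and 24.8 TPM), Itga6 (46.6 and 62.0 TPM), Evpl (2.31 and 4.16 TPM) and Col17a1 (0.491 and 0.769 TPM). Of the 12, 0 were called by limma between PBMC-hCG and IF mice, with 2 at an unadjusted p under 0.05, and 4 of the 12 were higher in PBMC-hCG mice than in control mice, against 20.2% of all tested genes.

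Desmosome genes join keratins to cell junctions. Of 9 tested, 1 was called higher in IF mice than in control mice, against 13.4% of all tested genes. It was Dsg3, a desmoglein of basal layers (0.684 TPM in control and 2.68 TPM in IF mice). Against the control group, 5 of the 9 were higher in the PBMC-hCG group, namely Dsp, Jup, Pkp3, Dsg2 and Dsg3, against 20.2% of all tested genes. Desmoplakin (Dsp), the linker between desmosome and keratin, was 9.80 TPM in the mean of the PBMC-hCG group against 7.10 TPM in controls and 6.56 TPM in IF mice, and was called in both comparisons (limma adjusted p = 0.0223 and 0.0307). The calls of Dsp, Sfn, Tgm1 and Trp63 between the PBMC-hCG and IF groups each held in 3 of 10 fits that left out a mouse of either group.

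Of 3 tested cornified envelope genes, Sfn, a 14-3-3 protein of stratified epithelium, was higher in the IF group than in controls (12.6 against 5.45 TPM). Sfn and Tgm1 were lower in PBMC-hCG mice than in IF mice. The shares of all tested genes were 13.4% and 5.99% in the same order. Of 9 tested epidermal and hair transcription factors, 5 were higher in IF mice than in control mice (Trp63, Klf4, Grhl1, Grhl2 and Ovol1), against 13.4% of all tested genes. Trp63, the p63 factor of basal cells, had means of 0.498, 1.51, 1.74 and 3.06 TPM in control, IF, PBMC and PBMC-hCG mice. The means of IF and PBMC-hCG mice were 63.0 and 46.7 TPM for Klf4, 2.27 and 1.89 TPM for Grhl1, 2.87 and 2.55 TPM for Ovol1, and 11.7 and 13.1 TPM for Grhl2. Of the 9, limma called 1 higher and 0 lower in PBMC-hCG than in IF mice, against 7.61% and 5.99% of all tested genes. The part of these factors in the keratin levels was not tested. Of 10 tested intermediate filament genes other than keratins, 1 was lower in the IF group than in controls, against 8.53% of all tested genes. It was Synm, which encodes synemin of muscle (36.4 TPM in control and 24.8 TPM in IF mice).

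In whole uterine tissue, fewer cells of a type and less RNA per cell cannot be told apart, so marker genes of the tissue's cell types are given beside the keratins. The summed level of 9 epithelial markers was 513 to 806 TPM in control mice, 602 to 809 TPM in IF mice, 609 to 721 TPM in PBMC mice and 586 to 749.5 TPM in PBMC-hCG mice. These ranges overlapped. In IF mice, 4 of the 9 (Epcam, Cdh1, Cldn7 and Elf3) were called higher than in control mice and Cldn3 lower. Of all tested genes, 13.4% were called higher and 8.53% lower. The sum of 5 mesothelial markers was 102 to 159 TPM in control mice, 121 to 156 TPM in IF mice, 157 to 174 TPM in PBMC mice and 143 to 194 TPM in PBMC-hCG mice. Of these, Msln, Upk3b, Upk1b and Lrrn4 were called higher in PBMC-hCG mice than in IF mice, as was Krt8, against 7.61% of all tested genes. The part of these markers in the keratin levels was not tested. Of 10 fits that left out a mouse of either group, these calls held in 2 for Upk1b and in 3 for each of the other three.

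The sum of 9 basal and squamous markers was 7.45 to 10.8 TPM in control mice, 17.1 to 22.1 TPM in IF mice, 13.2 to 28.4 TPM in PBMC mice and 13.1 to 17.0 TPM in PBMC-hCG mice. Of the 5 that could be tested, Trp63, Dsg3, Col17a1 and Sfn were called higher in IF mice than in control mice, against 13.4% of all tested genes. These genes are also in the lists above, so they are not further results. Sfn alone had a mean of 12.6 TPM in IF mice, where the mean sum was 18.9 TPM. The part of these markers in the hair keratin result was not tested. Between the PBMC-hCG and IF groups, Trp63 was called higher and Sfn lower, against 7.61% and 5.99% of all tested genes.

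The stromal sum was 5644 to 9509 TPM in control mice, lowest in control mouse 2, and 9159 to 11548 TPM in all other groups, with 2 of 9 markers higher and 2 lower in IF mice than in control mice, against 13.4% and 8.53% of all tested genes. Of 7 myometrial markers, 1 was lower in the IF group and 5 were lower in PBMC-hCG mice than in control mice, where 8.53% and 11.6% of all tested genes were lower. Of 5 leukocyte markers, 1 was higher in the IF group and 2 in PBMC-hCG mice than in control mice, where 13.4% and 20.2% of all tested genes were higher. Of 3 oviduct markers, 1 was lower in IF mice than in control mice, against 8.53% of all tested genes. Of 5 embryo markers, Eomes, which natural killer cells also express, was the only one tested and was higher in the IF group (3.75 to 4.76 TPM in control mice and 4.87 to 7.86 TPM in IF mice). The other 4, Pou5f1, Nanog, Cdx2 and Sox2, were each at 0 in some mice and did not exceed 0.210 TPM in any. The part of these markers in the keratin results was not tested.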

How the data were processed

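Uterine RNA of 20 mice was measured by RNA-seq, 1 library per mouse and 5 mice per group, grouped by the labels of the samples, while doses and hours follow the methods of the study. The authors deposited TPM values. Per the study's methods and the labels, stranded mRNA reads were trimmed with Trimmomatic, mapped to mm10 (GRCm38) with HISAT2 and assembled with StringTie, whose versions are not given in the sources used here. Library totals lay between 999988 and 999999 TPM, so depth is unknown, and no interval that needs counts is given. No columns were identical. No label gives a batch, so none could be taken into account.

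The authors' edgeR test with TMM needs counts and was replaced by limma 3.58.1 (R 4.3.3, data.table version 1.17.8) with a variance trend on log2(TPM + 0.1), which understates fold changes of low genes. After the study's filter, genes had to exceed 0 TPM in every library, which left 18706, and all 4 groups were fitted together. Benjamini-Hochberg adjustment ran over all of these genes in each of 6 comparisons. All p-values are two-sided. Genes were called at an adjusted p under 0.05. The study's criteria (2-fold change and an unadjusted p under 0.05) were an alternative, as were pseudocounts of 0.01 and 1, other filters, other scalings, a fit of the 2 groups compared and a replicate block. Each mouse was also left out in turn.

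Keratins named were those called in any comparison or with a group mean of at least 1 TPM, 15 in all, and Krt1, the only other tested keratin, was added. The keratins, their classes, the partner lists and the marker lists were chosen with earlier results of these data known. The fit was tested on simulated data. Positions came from the GRCm38.p6 tables, which matched all 50 keratins by gene identifier, and coding sequences and promoters from GENCODE and RefSeq (Python 3.11.15, pandas 2.3.3, Biopython 1.88, matplotlib 3.10.9). Protein sequences, implantation counts, PCR, ELISA and histology were not used here. An epithelial marker gene is not reported here and was left out of its list.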

Additional observations from a re-analysis of the deposited data

Results flagged for a closer look

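Single mice that stood far from the other 4 of their group were looked for with Dixon's criterion in the 15 named keratins and 4 groups. Of the 60 pairs of keratin and group checked, 14 held such a mouse, each with a high value. Normally distributed values would give about 1 in 20 pairs. The criterion was applied to TPM and not to log2 values, so that rate need not hold here. Keratins of 1 mouse are also not independent of each other. Control mouse 2 accounted for 5 of the 14. Its Krt7 was 161 TPM (59.3 to 68.6 TPM in the other 4), its Krt18 was 372 TPM (191 to 229 TPM) and its Krt20 was 2.45 TPM (0.186 to 0.651 TPM). Its Krt80 was 14.2 TPM (3.46 to 5.89 TPM) and its Krt12 was 14.2 TPM (0.857 to 1.76 TPM).

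Mouse 5 of the PBMC group accounted for another 5. Its Krt86 was 9.99 TPM (1.44 to 3.01 TPM in the other 4), its Krt87 was 10.7 TPM (2.29 to 3.94 TPM) and its Krt17 was 15.1 TPM (1.17 to 4.14 TPM). Its Krt19 was 147 TPM (78.5 to 89.2 TPM) and its Krt12 was 3.19 TPM (0.524 to 1.10 TPM).

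In mouse 1 of the PBMC-hCG group, Krt86 was 8.11 TPM (0.414 to 1.29 TPM in the other 4) and Krt81 was 7.34 TPM (0.923 to 2.78 TPM). Krt10 was 6.89 TPM in mouse 4 of the PBMC-hCG group (5.81 to 6.01 TPM), and Krt12 was 4.36 TPM in mouse 3 of the IF group (0.921 to 1.75 TPM).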

How the results depend on the processing

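For the 26 called results of single keratins, no value changed sign, 203 of the 233 values under other settings and 194 of the 260 values with a mouse left out kept the call, and the rest lost it. For the 70 results of tested keratins that were not called, 12 of 543 values under other settings, without the study's criteria, and 15 of 700 values with a mouse left out gained a call, while 7 and 31 changed sign, none of them called. Between the IF and control groups, the 8 called keratins became 5 by the study's criteria, 5 after quantile normalization and 5 in a fit of the 2 groups alone. The shares of all tested genes were 4.03%, 22.7% and 13.2% in the same order, against 21.9% in the main fit. Without the filter on low values, limma called 10 of 37 tested keratins and 12.5% of all genes. The 10 included Krt2, Krt76, Krt78 and Krt84, which only that fit tested. With a mouse left out it called 5 to 9 keratins (5 without control mouse 1, 3 or 4 or IF mouse 3 or 4) and 17.8% to 26.8% of all tested genes. Between the PBMC and IF groups, 0 became 3 by the study's criteria, which 0.438% of all tested genes met. Between the PBMC-hCG and IF groups, 5 became 3 by the study's criteria and 8 in a fit of the 2 groups alone. The shares of all tested genes were 2.31% and 13.2%, against 13.6% in the main fit. The count became 0 to 9 with a mouse of either group left out (0% to 27.1% of all tested genes). Without control mouse 2, a setting chosen after seeing the data, it became 9 (21.8%). Between the PBMC and control groups, 8 became 4 by the study's criteria (3.34% of all tested genes, against 19.5% in the main fit). Without the filter on low values the count was 11 of 37 tested keratins, against 11% of all genes. The 11 included Krt2, Krt39 and Krt76, which only that fit tested. With a mouse left out it was 5 to 9 (5 without PBMC mouse 5), against 15.8% to 24.7% of all tested genes. Between the PBMC-hCG and control groups, 5 became 2 by the study's criteria (4.74% of all tested genes, against 31.8% in the main fit). Without the filter on low values the count was 9 of 37 tested keratins, against 18.1% of all genes. The 9 included Krt2, Krt35, Krt39 and Krt78, which only that fit tested. With a mouse left out it was 4 to 7, against 25.4% to 40.2% of all tested genes. By the study's criteria a call also needs a 2-fold change. The cause of the other changes was not tested. With the replicate number as a block, limma called 8, 0, 7, 0, 8 and 5 keratins in the order IF against control, PBMC against IF, PBMC-hCG against IF, PBMC-hCG against PBMC, PBMC against control and PBMC-hCG against control. The shares of all tested genes were 22.2%, 0%, 17.2%, 0.0107%, 19.4% and 32.5% in the same order. No label says what the replicate numbers mark. The correlation of deviations from the group means between same-numbered mice ranged from -0.247 to 0.457. Among the control, IF and PBMC groups it was highest for mice numbered 5 (0.396, 0.457 and 0.272). Between mouse 5 of the PBMC-hCG group and those of the other groups it was -0.0896 to -0.0591. Whether same-numbered mice shared more than a number cannot be told. Shared sequence limits the values of single hair keratins, and the unknown depth those of low keratins.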
